A study of Mus musculus with 2 samples.

Results

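The genes described here are 7 globin genes of the mouse and 2 other genes of red cell development, measured in total RNA of the embryonic neural tube. They are the adult-type alpha-globin genes Hba-a1 and Hba-a2, the embryonic alpha-like gene Hba-x, the adult-type beta-globin genes Hbb-bs and Hbb-bt, the embryonic beta-like genes Hbb-y and Hbb-bh1, Alas2 and Slc4a1. They were taken by symbol after each gene identifier was matched without its version, and all 9 of 9 were found among 43346 gene rows. The set is known by gene name, but it was selected on the levels of these genes in these same libraries, the TPM and counts of both replicates, so the values below describe the 2 libraries and no test was made on them.

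The neural tube is the embryonic structure from which brain and spinal cord form. It was sampled from mice of the B6NCrl strain at embryonic day 14.5, untreated and with no allele named, as 1 group of 2 libraries. Replicate 1 was a single tube from 1 pup of a first pregnant female and replicate 2 a single tube from 1 pup of a second one, although the labels also call the sex mixed, male and female pooled. Each library started from 10 ng of RNA longer than 200 bases, with spike-in RNA (synthetic transcripts added in a known amount).

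Hemoglobin carries oxygen in red cells and is built from pairs of alpha-like and beta-like globin chains with a haem group in each chain. Primitive red cells, which arise in the yolk sac and mature in the circulation, make embryonic chains from Hba-x, Hbb-bh1 and Hbb-y, and the later definitive red cells, which come from the fetal liver and afterwards the bone marrow, make adult-type chains. This change of genes along each cluster is known as globin switching. Red cells are not neural cells, and a dissected tissue holds them in the blood of its vessels. In bulk RNA, fewer cells of a type and less RNA per cell cannot be told apart.

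The coding sequences are shown because they set which reads can be told apart. Each alpha-like gene had 426 coding bases and each beta-like gene 441, in the transcripts of GENCODE release 21 for GRCm38. Hba-a1 and Hba-a2 differed at 1 coding base, C381T, and Hbb-bs and Hbb-bt also at 1, C417T, counted from 1 at the first coding base with the base of the first-named gene first. The following stretches hold those positions and are written 5′ to 3′ on the coding strand. In the alpha-like stretch, coding bases 352 to 411, capitals mark bases that differ from Hba-a2. In the beta-like stretch, coding bases 382 to 441, capitals mark bases that differ from Hbb-bs.
Hba-a2: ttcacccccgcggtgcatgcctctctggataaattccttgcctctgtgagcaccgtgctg
Hba-a1: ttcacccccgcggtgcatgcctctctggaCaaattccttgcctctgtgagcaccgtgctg
Hba-x: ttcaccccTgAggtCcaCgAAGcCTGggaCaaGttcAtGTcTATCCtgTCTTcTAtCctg
Hbb-bs: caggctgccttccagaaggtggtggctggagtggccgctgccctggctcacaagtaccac
Hbb-bt: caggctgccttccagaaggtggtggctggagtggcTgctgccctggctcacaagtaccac
Hbb-y: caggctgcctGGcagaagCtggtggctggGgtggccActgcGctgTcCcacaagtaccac
Hbb-bh1: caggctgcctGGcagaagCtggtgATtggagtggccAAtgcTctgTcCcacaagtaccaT

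The embryonic genes stood well apart from the adult-type genes in sequence. In these stretches Hba-x differed from Hba-a2 at 27 of 60 bases, Hbb-y from Hbb-bs at 8 and Hbb-bh1 from Hbb-bs at 11. Over the whole coding sequence Hba-x was 61.5% identical to Hba-a2, Hbb-y 74.4% identical to Hbb-bs and Hbb-bh1 73.9% identical to Hbb-bs. The deposited effective lengths were 99 bases shorter than the lengths, so windows of 100 bases were compared. No window of an embryonic coding transcript occurred in the adult-type ones compared, and the longest identical coding run between an embryonic and an adult-type gene was 18 bases in the alpha-like and 22 bases in the beta-like family. Between the adult-type copies, by contrast, 339 windows were shared by Hba-a1 and Hba-a2, which is 56.5% of the windows of Hba-a1 and 74.5% of those of Hba-a2. Hbb-bs and Hbb-bt shared 331, which is 62.6% and 54.8% of their windows. The level of each adult-type copy is therefore uncertain, and their sums are used below for comparisons between the families.

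The alpha-like genes lie on chromosome 11 in the order embryonic then adult-type along the plus strand: Hba-x at chr11:32276400-32278116, Hba-a1 at chr11:32283511-32284465 and Hba-a2 at chr11:32296489-32297298 (GRCm38). The beta-like genes lie on the minus strand of chromosome 7. Along the direction of transcription they run from Hbb-y at chr7:103851749-103853216 and Hbb-bh1 at chr7:103841637-103843164 to Hbb-bs at chr7:103826534-103828096 and Hbb-bt at chr7:103812524-103813996. All 7 are annotated as protein-coding and no other annotated gene overlaps them.

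Promoter sequence is shown for 1 adult-type alpha, 1 adult-type beta and 1 embryonic beta gene, the groups whose levels are compared below. The stretches come from RefSeq (GRCm38.p6), end before the first exon downstream and are written 5′ to 3′ on the strand of the gene. Hba-a2 is chr11:32296372-32296488 on the plus strand, and Hbb-bs (chr7:103827929-103828011) and Hbb-y (chr7:103853217-103853327) are on the minus strand. The Hbb-bs stretch is intronic for the annotated transcript that starts farthest upstream. Capitals mark 4 motifs searched on both strands: CACCC, which Klf factors bind, CCAAT, which NF-Y binds, GATAA, which GATA factors bind, and TATAA, the letters of a TATA box.
Hba-a2: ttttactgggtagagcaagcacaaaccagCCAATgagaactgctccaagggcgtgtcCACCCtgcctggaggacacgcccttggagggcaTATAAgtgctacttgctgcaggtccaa
Hbb-bs: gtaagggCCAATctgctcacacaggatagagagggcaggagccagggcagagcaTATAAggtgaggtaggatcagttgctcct
Hbb-y: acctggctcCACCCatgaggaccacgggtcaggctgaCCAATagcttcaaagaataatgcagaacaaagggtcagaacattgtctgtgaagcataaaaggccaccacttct

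The RefSeq promoter table held 7 of the 9 genes, all but Hbb-bh1 and Slc4a1. In the 250 bases before the start, CACCC occurred in 7 of these 7 and in 52.0% of all 32851 promoters, and GATAA in 7 of 7 and in 22.6% of all. CCAAT occurred in 5 of 7, all but Hba-x and Alas2, against 33.8% of all promoters. TATAA occurred in 6 of 7, all but Hbb-y, against 22.8%. No matches of different motifs overlapped. The CCAAT matches nearest the same place began at -88 in Hba-a1, -91 in Hba-a2, -76 in Hbb-bs, -80 and -75 in Hbb-bt and -83 in Hbb-y, counted in bases from the start. The windows of Hba-a1 and Hba-a2, set off by 3 bases, were identical at 297 of 297 bases. These are matches of letters only.

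Adult-type globins made up most of the globin RNA in both tubes, and the embryonic globins took a several-fold larger share in replicate 2. In TPM, a level corrected for transcript length and scaled to the same total in each library, so that it can be compared between genes, the 4 adult-type genes summed to 10925 in replicate 1 and 9315 in replicate 2. The 3 embryonic genes summed to 232 TPM and 1260 TPM. The 9 genes together held 1.12% and 1.06% of all TPM, and 112819 and 79953 expected reads. By TPM their total thus differed little between the tubes while its makeup differed. Scaled by spike-in RNA instead, their summed reads in replicate 2 were 1.31 times those in replicate 1.

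**Figure D1:**
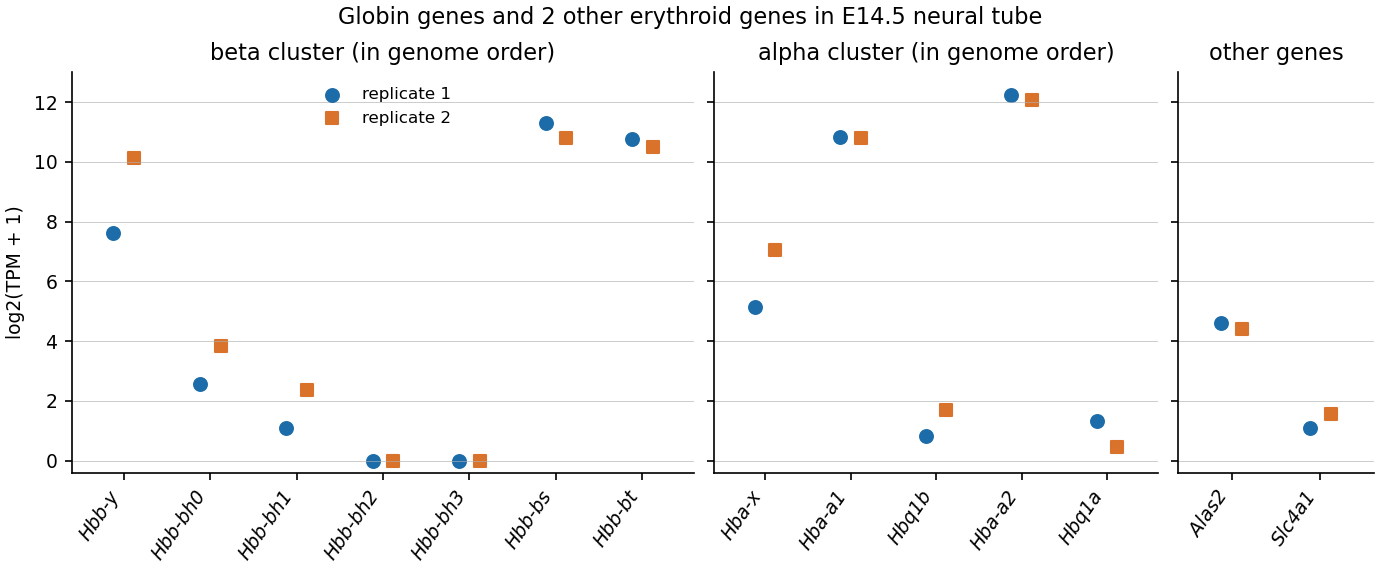
Level as log2(TPM + 1) of the genes of the beta-globin and alpha-globin clusters in genome order and of Alas2 and Slc4a1, with a circle for replicate 1 and a square for replicate 2; the low globins Hbb-bh0, Hbb-bh2, Hbb-bh3, Hbq1a and Hbq1b are drawn beside the 9 genes. Hbb-y, Hba-x and Hbb-bh1 are higher in replicate 2, and the 4 adult-type globins are slightly lower there.

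Among the adult-type genes, which encode the chains of definitive red cells, Hba-a2 was the highest globin in both libraries. It had 4849 TPM in replicate 1 and 4312 TPM in replicate 2 (4581 ± 380, mean ± SD, n = 2, from 44709 and 29371 expected reads). It ranked 10th and 12th among all gene rows by TPM. Hba-a1 had 1836 TPM and 1777 TPM (1806 ± 41.8, from 16253 and 11724 reads). By TPM Hba-a2 was thus above Hba-a1 in each tube, by 2.64 times and 2.43 times, with the reserve that most of their sequence is shared. The size of these factors also depends on how reads were divided among transcripts. A retained-intron transcript held 79.6% and 77.7% of the TPM of Hba-a1, and that of Hba-a2 was at 0. The coding transcript of Hba-a1 had 375 and 397 TPM.

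The adult-type beta genes were of the same order. Hbb-bs had 2512 TPM in replicate 1 and 1784 TPM in replicate 2 (2148 ± 515, n = 2, from 27040 and 14319 reads). Hbb-bt, its neighbour with a nearly identical coding sequence, had 1728 TPM and 1442 TPM (1585 ± 202, from 21147 and 13042 reads). Both were lower in replicate 2, Hbb-bs by the larger factor. The authors' posterior standard deviation of the count, which measures how far reads could be moved between similar genes, was 222 and 134 reads for Hbb-bs and for Hbb-bt alike, and 151 and 130 for Hba-a1 and Hba-a2. These spreads are small beside the counts, but they do not settle how reads divide between near-identical copies. The retained-intron transcript of Hba-a1 was given 11698 and 8162 reads, and that of Hba-a2 was given 0 in both libraries.

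Hbb-y, which encodes the epsilon-like embryonic chain, was the highest embryonic globin. It had 196 TPM in replicate 1 and 1126 TPM in replicate 2 (661 ± 657.5, n = 2, from 2237 and 9475 reads). Its authors' credibility bounds, 183 to 199 TPM and 1062 to 1106 TPM around posterior means of 191 and 1084, were far apart. Its TPM in replicate 2 lay above the upper bound, as did the TPM of Hba-a1, Hba-a2 and Hbb-bt in both libraries and of Hbb-bs in replicate 2. It ranked 776th among gene rows in replicate 1 and 73rd in replicate 2, where it came close to Hbb-bt at rank 53.

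Hba-x encodes the zeta-like embryonic alpha chain. It had 34.2 TPM in replicate 1 and 130.0 TPM in replicate 2 (82.1 ± 67.7, n = 2, from 487 and 1323 reads). Hbb-bh1, which encodes the other embryonic beta-like chain and is active earliest in primitive red cells, had 1.15 TPM and 4.15 TPM (2.65 ± 2.12, from 12 and 32 reads). All 3 embryonic genes were higher in replicate 2, and the posterior standard deviation of their counts was 0 in both libraries.

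Alas2 and Slc4a1 act outside the globin chains. Alas2, the erythroid form of the first enzyme of haem synthesis, had 23.6 TPM in replicate 1 and 20.4 TPM in replicate 2 (22.0 ± 2.27, n = 2, from 841 and 538 reads). It lies on chromosome X at chrX:150547375-150570638 on the plus strand and overlaps exons of Apex2 and Mir3620. Apex2, on the other strand, had 15.6 TPM and 15.0 TPM, and since the strand setting of the counting is not given in the sources used here, reads of both genes cannot be told apart where they overlap. Slc4a1, the anion exchanger of the red cell membrane (band 3), lies at chr11:102348824-102366203 on the minus strand. It had 1.15 TPM and 1.94 TPM (1.54 ± 0.559, from 93 and 129 reads), and its TPM lay below the authors' credibility bounds of 1.28 to 3.88 in replicate 1 and 2.15 to 5.45 in replicate 2. Of the 9 genes, 9 reached 1 TPM in both libraries, as did 34.7% of all gene rows.

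By mean TPM the order was Hba-a2, Hbb-bs, Hba-a1, Hbb-bt, Hbb-y, Hba-x, Alas2, Hbb-bh1 and Slc4a1. The ranges over the 2 libraries overlapped for the neighbours Hbb-bs and Hba-a1 and for the neighbours Hbb-bh1 and Slc4a1, whose order cannot be read. For the other neighbouring pairs the ranges of TPM did not overlap. The order of Hba-a1 and Hbb-bt still depends on the measure and is not read. By expected reads Hbb-bt was above Hba-a1, at 21147 and 13042 against 16253 and 11724. By protein-coding transcripts alone Hbb-bt had 1728 and 1442 TPM and Hba-a1 375 and 397 TPM. Hbb-bs was then below Hbb-bt as well. Its coding transcripts had 953 and 102 TPM in replicate 1 and 672 and 0 TPM in replicate 2.

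The share of embryonic globin in a family does not depend on how the libraries are scaled to each other. Of beta-like globin, Hbb-y and Hbb-bh1 made up 4.45% of TPM in replicate 1 and 25.95% in replicate 2 (15.2 ± 15.2, n = 2), a 5.83-fold difference. In expected reads this was 2249 of 50436, or 4.46% (95% exact Clopper-Pearson interval 4.28 to 4.64), and 9507 of 36868, or 25.8% (25.3 to 26.2). The intervals did not overlap. They cover counting error only, since reads of amplified RNA are not independent molecules, and they say nothing of the spread between embryos.

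Of alpha-like globin, Hba-x made up 0.509% of TPM in replicate 1 and 2.09% in replicate 2 (1.30 ± 1.12, n = 2), a 4.10-fold difference. In reads this was 487 of 61449, or 0.793% (0.724 to 0.866), and 1323 of 42418, or 3.12% (2.96 to 3.29). The alpha-like share was higher in the same library as the beta-like share and smaller than it in each. Of all 7 globins together, the embryonic genes made up 2.08% and 11.9% of TPM (7.00 ± 6.96), from 2736 of 111885 reads and 10830 of 79286 reads.

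**Figure D2:**
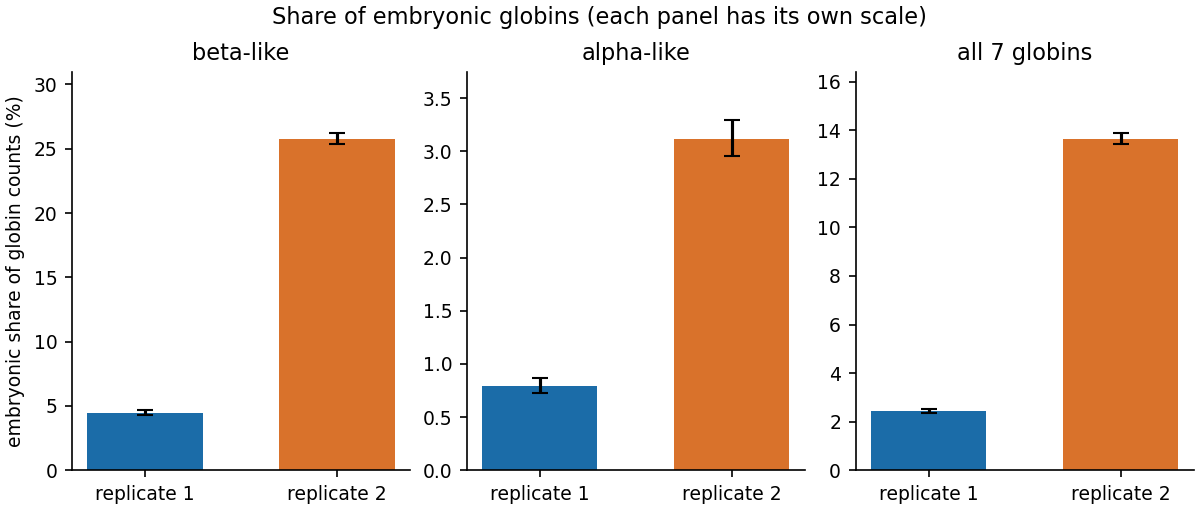
Embryonic share of globin in percent of expected reads for the beta-like genes, the alpha-like genes and all 7 globins, with 1 bar per library, exact 95% counting intervals as error bars and a scale of its own for each panel. The bar of replicate 2 is higher in each panel, from 4.46% to 25.8% for the beta-like genes and from 0.793% to 3.12% for the alpha-like genes.

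The balance of the families themselves differed much less. Alpha-like over beta-like globin was 1.51 in replicate 1 and 1.43 in replicate 2 by TPM (1.47 ± 0.0613, n = 2), and 1.22 and 1.15 in reads, which count longer transcripts more. Beta-like globin summed to 4438 TPM and 4357 TPM (4397 ± 57.3). By TPM, adult-type beta-globin was lower in replicate 2 (4240.0 TPM and 3226 TPM), and the higher Hbb-y made up most of that gap. That gap depends on the scaling. Scaled by spike-in RNA, reads of replicate 2 over replicate 1 had a ratio of 1.05 for adult-type beta-globin and 1.35 for beta-like globin. Alpha-like globin summed to 6719 TPM and 6219 TPM, of which Hba-x was a small part in both.

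Within the embryonic group the beta-like member dominated. Hbb-y stood 171 times above Hbb-bh1 in replicate 1 and 271 times in replicate 2 by TPM, the latter over few reads. It stood 5.74 times and 8.66 times above Hba-x. Adult-type alpha-globin was 195 times and 46.8 times as high as Hba-x, whereas adult-type beta-globin was 21.6 times and 2.87 times as high as Hbb-y. By TPM, RNA of the embryonic alpha and beta genes was thus unequal in both libraries.

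Ratios of replicate 2 to replicate 1 placed the genes among all others. Expected reads were scaled by the trimmed mean of M values (TMM), which sets the bulk of genes near 1. Hbb-y was 5.36 times as high in replicate 2 (95% counting interval 5.12 to 5.62, log2 ratio 2.42), Hba-x 3.44 times (3.10 to 3.82, log2 1.78) and Hbb-bh1 3.27 times (1.69 to 7.20, log2 1.71). Slc4a1 was 1.75 times as high (1.34 to 2.32, log2 0.81). Of the 9 genes these 4 were at least 1.5-fold higher, as were 10.7% of all 17623 genes tested (those averaging 10 or more reads), and nothing is read from that count because the genes were chosen with their values known. Slc4a1 was the nearest inside that limit, and with TPM and a pseudocount of 1 its ratio was 1.37.

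The adult-type genes lay on the other side of 1. Hba-a1 had a ratio of 0.914 (0.892 to 0.935, log2 -0.13), Hba-a2 0.832 (0.820 to 0.844, log2 -0.27), Hbb-bt 0.781 (0.764 to 0.798, log2 -0.36) and Hbb-bs 0.671 (0.657 to 0.684, log2 -0.58). Alas2 had a ratio of 0.810 (0.726 to 0.904, log2 -0.30). None of the 9 was at least 1.5-fold lower, as were 8.53% of genes tested. Hbb-bs was the nearest outside that limit, at 1.49-fold lower. Summed, adult-type globin had a ratio of 0.794 (0.787 to 0.802) and embryonic globin one of 5.01 (4.81 to 5.23), and adult-type globin over Alas2 was 463 in replicate 1 and 457 in replicate 2 by TPM.

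The scaling decided the direction of 4 of these ratios. Spike-in RNA took 3.31% of expected reads in replicate 1 and 2.29% in replicate 2. Scaling by it added about 0.55 to the log2 ratios, and less for genes with very few reads. Hba-a1 then had a ratio of 1.34, Hba-a2 1.22, Hbb-bt 1.14 and Alas2 1.19 (all above 1), whereas Hbb-bs stayed below 1 at 0.981. Of all genes tested, 44.1% were then at least 1.5-fold higher. Hbb-y (7.84), Hba-x (5.03), Hbb-bh1 (4.74) and Slc4a1 (2.56) kept their direction. Whether the adult-type globins were lower in replicate 2 therefore depends on the scaling, and the order of embryonic above adult-type ratios does not.

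**Figure D3:**
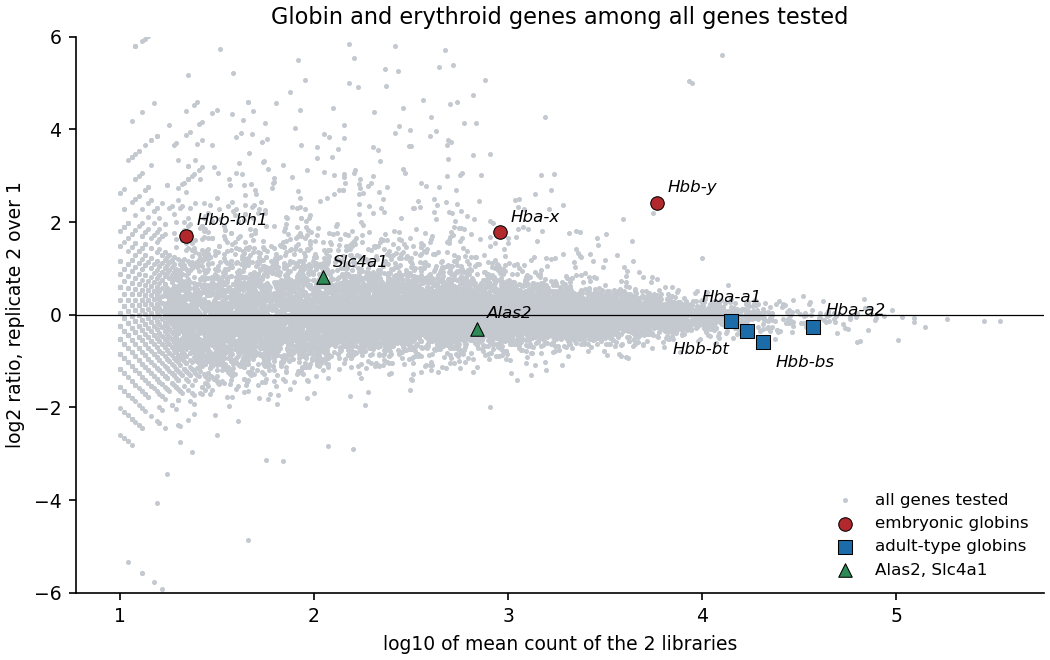
Log2 ratio of replicate 2 over replicate 1 against the log10 mean count for the genes tested that have a symbol, with the 9 genes marked and 38 genes lying beyond the vertical axis. The embryonic globins lie above the bulk of genes at log2 ratios of 1.71 to 2.42, and the adult-type globins lie just below 0 at high counts.

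Beyond the 9 genes, lists of further red cell genes show what else of the erythroid programme was measured. They held 90 genes in 7 lists, of which 65 reached 1 TPM in both libraries, against 34.7% of all gene rows. Of 79 tested, 15 (19.0%, against 10.7% of all genes tested) were at least 1.5-fold higher in replicate 2 and 2 (2.53%, against 8.53%) at least 1.5-fold lower. The counts for each list below are to be read against these same shares. Their median log2 ratio was 0.09, against -0.01 over all genes tested. Many genes of these lists are also expressed in cells other than red cells.

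The remaining globins were low. Of 7, 2 reached 1 TPM in both libraries, Cygb (cytoglobin, 23.0 and 19.4 TPM) and Ngb (neuroglobin of nerve cells, 2.82 and 1.90 TPM). The theta-like genes Hbq1a and Hbq1b had 15 and 3 reads and 8 and 15 reads, which are too few to place. Hbb-bh2 was at 0 reads in both libraries, below the floor of 3 reads that a count of 0 allows.

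Haem synthesis was measured in full and differed little. All 11 further genes reached 1 TPM in both libraries and none of 11 was 1.5-fold apart in either direction (median log2 ratio 0.06). The highest were Tmem14c, a mitochondrial porphyrin transporter (96.8 and 119.7 TPM), Alad (62.6 and 57.2), Alas1 (51.0 and 58.4) and Uros (52.1 and 55.2). Alas1, the form of the first enzyme found in all tissues, was above Alas2 in both libraries. Alas2 was thus the lesser form by TPM.

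Iron handling genes all reached 1 TPM, and 4 of 12 were at least 1.5-fold higher in replicate 2, against 10.7% of all genes tested, and none lower, against 8.53% (median log2 ratio 0.19). The ferritin chain genes Ftl1 (4038 and 4148 TPM) and Fth1 (1232 and 1503 TPM) were the highest, followed by Hmox2 (98.0 and 86.1). Tfrc, the transferrin receptor that brings iron into developing red cells, had 34.2 and 58.6 TPM and a ratio of 1.76 (1.67 to 1.86). The other 3 were Slc40a1, the iron exporter (20.96 and 34.5 TPM, ratio 1.60), Steap3, which reduces iron in endosomes (1.30 and 2.49 TPM, ratio 2.07), and Hmox1, which breaks down haem (2.49 and 7.09 TPM, ratio 2.65). Slc40a1 and Hmox1 are well known in macrophages too.

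Genes of the red cell membrane and its skeleton split into widely expressed and near-silent members. Of 17, 10 reached 1 TPM in both libraries and 7 were under it in both. The highest, Epb41 (48.0 and 66.4 TPM), Add2 (47.1 and 54.9), Dmtn (51.8 and 46.0) and Mpp1 (16.8 and 22.8), encode skeletal or scaffold proteins that other cells use as well. Among the members known from red cells, Epb42 had 0.22 and 0.61 TPM and Rhag 0.09 and 0.30 TPM. Of 14 tested, 4 were at least 1.5-fold higher (10.7% of all genes tested) and none lower (8.53% of all), with a median log2 ratio of 0.27. They were Gypc (3.15 and 10.4 TPM, ratio 3.07), Aqp1 (0.16 and 0.69, ratio 3.91), Tmod1 (1.61 and 2.70, ratio 1.57) and Epb42, whose ratio of 1.56 had a counting interval that spanned 1 (0.692 to 3.70).

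The erythroid transcription factors ranged from 1 read to the 83.2 TPM of Ldb1. Gata1, the central factor of the lineage, had 1 read in each library, Gfi1b 1 and 3 reads, and Klf1, which drives adult beta-globin, 10 and 14 reads (0.34 and 0.65 TPM). Of 10 factors, 4 reached 1 TPM in both libraries. They were Ldb1 (75.8 and 83.2 TPM), Lmo2 (53.5 and 52.3), Tal1 (1.80 and 1.88) and Nfe2 (1.47 and 1.61), of which Ldb1 and Lmo2 also act in other tissues. Of 8 tested, 2 were at least 1.5-fold higher, Ikzf1 (ratio 2.23) and Klf1 (ratio 1.73 from few reads), against 10.7% of all genes tested, and none lower, against 8.53%, with a median log2 ratio of -0.04. Gata1 and Gfi1b were thus at or under the floor of 3 reads, while the other factors named here were above it.

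Of 15 regulators known from work on the globin switch, 14 reached 1 TPM in both libraries. The highest was Bcl11a, a repressor of embryonic and fetal globin genes that neurons also express (114 and 117 TPM, ratio 1.08), followed by the chromatin enzyme genes Kdm1a (66.2 and 74.6 TPM) and Chd4 (55.3 and 67.1) and by Nfix (71.4 and 55.3). Zbtb7a had 8.53 and 10.2 TPM and Sox6 9.00 and 8.90 TPM. In 1 of 15, Igf2bp1, the level was at least 1.5-fold higher in replicate 2 (2.36 and 4.80 TPM, ratio 1.89), and none was that much lower (median log2 ratio 0.11). The cells in which these regulators were expressed cannot be told from bulk RNA.

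Genes of late erythroid maturation were led by widely expressed ones. Prdx2, the abundant red cell peroxiredoxin, had 982 and 987 TPM, Bnip3l, which removes mitochondria, 358 and 383, and Mkrn1 205 and 221. Of 18, 12 reached 1 TPM in both libraries. Of 14 tested, 3 were at least 1.5-fold higher in replicate 2, Epor, the erythropoietin receptor (0.51 and 1.51 TPM, ratio 2.69), Hemgn (0.22 and 0.66, ratio 2.69) and Blvrb (9.51 and 18.2, ratio 1.60). The median log2 ratio was 0.05.

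Markers of other cells differed between the same 2 libraries. Neurons were present in both, since all 10 markers of postmitotic neurons reached 1 TPM and none was 1.5-fold apart (6520.0 and 6331 TPM summed). These markers do not tell the neural tube from other neural tissue. All 10 meningeal and fibroblast genes, of the connective tissue around the tube, exceeded 1.5-fold in favour of replicate 2, as did 10.7% of all genes tested, and their sum was 178 TPM in replicate 1 and 1339 TPM in replicate 2. Their highest members were Igfbp2 (129 and 310 TPM), Col3a1 (9.70 and 419), Col1a2 (6.42 and 215) and Col1a1 (5.84 and 196). All 9 endothelial genes were higher too, at 95.6 and 220 TPM summed, with Cldn5, a junction protein of brain vessels, at 35.7 and 90.0 TPM. Their part in the higher embryonic globin of replicate 2 was not tested.

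Lists of other blood cells, and of liver, ranged widely in level. Of 12 macrophage and microglia genes 8 passed 1.5-fold toward replicate 2, against 10.7% of all genes tested (112 and 203.5 TPM summed, C1qb 22.3 and 40.7). The 12 neutrophil and mast cell genes summed to 3.62 and 21.4 TPM, with Mcpt4 and Tpsb2 at 0 in both. The 8 platelet genes summed to 18.9 and 55.9 TPM, nearly all of the difference being Pf4 (1.93 and 36.4 TPM). The 8 lymphocyte genes summed to 0.52 and 0.53 TPM, with Cd3d and Ms4a1 at 0 in both libraries. The 8 liver markers summed to 19.5 and 18.9 TPM, led by Apoa2 (6.28 and 6.66) and Apoa1 (6.12 and 5.50). The part of these lists in the globin values was not tested.

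**Figure D4:**
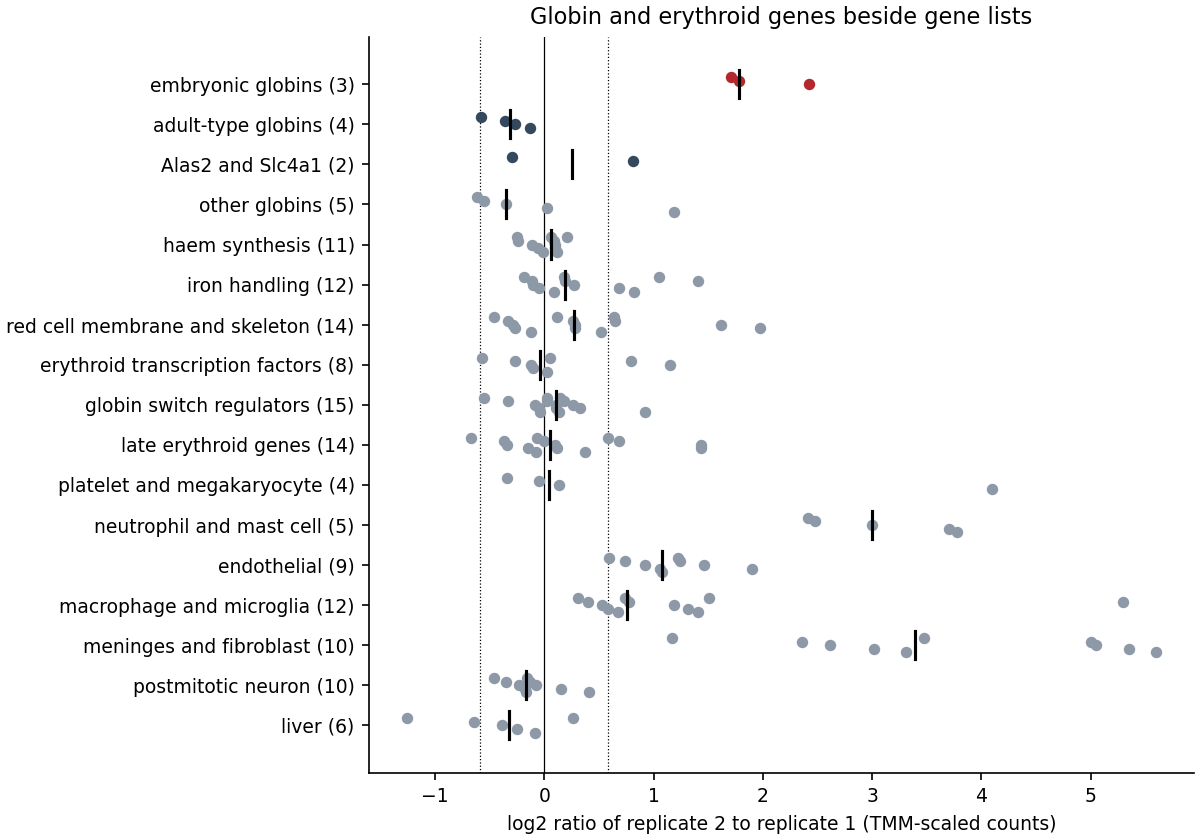
Log2 ratio of replicate 2 to replicate 1 under TMM scaling for each gene tested, by group and list, with the number of genes in brackets, a vertical bar at each median and dotted lines at 1.5-fold in either direction. The embryonic globins (1.71 to 2.42) lie right of the adult-type globins (-0.58 to -0.13), and the lists of meninges, endothelium and macrophages lie right of 0 too; the 5 neutrophil and mast cell genes drawn passed the count limit mainly through replicate 2, so their median is not read.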

How the data were processed

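Total RNA of 2 neural tubes of 1 group was measured, per the labels. Per the deposited descriptions, quantification used mm10 and the GENCODE M4 annotation. Which aligner and quantifier were run, and with which strand setting, is not given in the sources used here. Expected counts were deposited unscaled, as estimates for each gene and each transcript. TPM were deposited with the same sum per library, which includes the spike-ins. FPKM were deposited too, corrected for depth and effective length. The deposited percent columns give each transcript's share of its gene's TPM. The deposited score columns are posterior standard deviations of counts and credibility bounds of TPM.

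Of 69691 rows per library, 43346 were genes, 96 spike-ins and 26248 had numeric identifiers. Gene rows held 32255363 and 25428747 expected reads. Symbols came from GENCODE release 21 (GRCm38, the assembly that mm10 names), with 42462 gene rows matched and 884 not. Levels and shares are deposited TPM. Expected counts were rounded, and ratios used TMM library sizes computed by edgeR 4.0.16 under R 4.3.3, adding a prior count of 0.5, over genes averaging 10 or more reads. The ratio step was tested on simulated data. DESeq2 1.42.0 size factors, spike-in totals, FPKM, posterior means, pseudocounts, filters and each library alone were alternatives. Tables were handled in Python 3.11.15 (pandas 2.3.3, NumPy 2.4.6), intervals came from SciPy 1.17.1 and plots from matplotlib 3.10.9. With 1 group no p-value was computed, and the spread is that between these 2 samples. The members and the gene lists were chosen with earlier results of these data known. The named genes are the 9 members, the 4 highest of each list by mean TPM and list genes that bear on a comparison. For the lists of other cells, fewer than 4 are named where their levels add nothing, and Cd3d, Ms4a1, Mcpt4 and Tpsb2 are named for being at 0. List counts and medians include a few genes whose own values are not reported here.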

Additional observations from a re-analysis of the deposited data

How the results depend on the processing

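The mean beta-like embryonic share, 15.2%, was 15.1% by expected reads, 15.2% by posterior mean TPM and 20.7% by protein-coding transcripts alone (6.63% and 34.8% in the 2 libraries), an alternative chosen after seeing the data. The alpha-like share, 1.30%, was 1.96% by expected reads. FPKM fixes the same shares as TPM. The SD of 2 libraries is too wide to judge these shifts. Each library alone gave 4.45% and 25.95% of beta-like, 0.509% and 2.09% of alpha-like and 2.08% and 11.9% of all globin. Alpha-like over beta-like globin, 1.47, was 1.18 by expected reads and 1.63 by protein-coding transcripts alone, and 1.43 to 1.51 in each library alone. The summed level of the 9 genes, 10890 TPM, was 11689 TPM over gene rows alone. The 1887 genes at least 1.5-fold higher became 885 at a mean count of at least 100, 4389 with no filter, 983 at 2-fold and 7770 (44.1%) with spike-in scaling. The 1503 lower ones became 416, 4607, 548 and 416. Members at least 1.5-fold higher numbered 3 instead of 4 with a TPM pseudocount of 1, which left out Slc4a1. No paired analysis was possible because there is 1 group. Hbb-bh1, at 12 and 32 reads, is limited by depth.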

Other observations

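The transcript tables divide the adult-type globins in a way that differs between near-identical genes. For Hba-a1, the retained-intron transcript Hba-a1-202 held 79.6% of the gene's TPM in replicate 1 and 77.7% in replicate 2, whereas the retained-intron transcript of Hba-a2, Hba-a2-202, was at 0 in both. For Hbb-bs, the retained-intron transcript Hbb-bs-202 held 58.0% and 62.3%, the coding transcript Hbb-bs-201 37.9% and 37.7%, and Hbb-bs-203 4.05% and 0%. Hbb-bt, Hbb-y and Hbb-bh1 each had a single transcript. These divisions are the authors' estimates. Apart from Hbb-bs-203, they were similar in both libraries. They enter the TPM of Hba-a1 and Hbb-bs because the retained-intron models are shorter than the longest coding ones.

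Hba-x was assigned to Hba-x-201 alone in replicate 1, and Hba-x-202 held 9.95% of it in replicate 2. For Alas2, the coding transcripts Alas2-201 and Alas2-202 held 77.2% and 12.4% in replicate 1 and 71.0% and 19.4% in replicate 2.

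The beta-like pseudogene Hbb-bh0 had 4.93 TPM in replicate 1 and 13.4 TPM in replicate 2 from 3 and 6 reads, since its deposited effective length is 30 bases of 129. By TPM it stood above Hbb-bh1, and by reads below it, so its TPM is not a level to compare. Hbb-bh3 was at 0 reads in both libraries.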
